A study of Mus musculus with 10 samples.

Results

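The genes described here build the vesicle coats that carry proteins between the endoplasmic reticulum (ER) and the Golgi, together with the cargo receptors that load those vesicles. A gene belonged to the set when its name in the deposited table equalled 1 of 43 symbols, and all 43 were found among the 27665 genes of the table. By role, 9 encode subunits of the COPI coat, 15 the COPII coat and the proteins that assemble it, and 18 cargo receptors. Tango2, named after a Drosophila screen for Golgi organization, was left outside these classes. Expression was measured by RNA sequencing of pancreatic islets from male C57BL/6J mice, an inbred laboratory strain, aged 8 to 10 weeks. The 5 western diet mice and the 5 standard chow mice received their diet for 4 weeks, and the islets were isolated and processed at once. All mice were of the same strain with no other treatment named in the labels, and each library is 1 mouse. The western diet mice came from cage 4 (mice 1, 2, 4 and 5) and cage 2 (mouse 5), and all 5 chow mice from cage 3, so diet and cage cannot be told apart. The title of the series names IRE1α, an ER stress sensor, and the expansion of the Golgi while beta cells compensate, and the comparison of the diets bears on that setting.

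COPII vesicles bud from ER exit sites and carry newly made secretory proteins, in beta cells above all proinsulin, towards the Golgi. The GTPase Sar1 is switched on by Preb (also called Sec12) and recruits Sec23 with Sec24, the subunit that binds cargo, and Sec13 with Sec31 then form the outer cage. COPI vesicles, coated by the coatomer complex, run mainly in the other direction and return escaped ER proteins and the receptors themselves. Among the receptors, those of the KDEL family recognise the retrieval tail of ER chaperones, the p24 (Tmed) proteins cycle between ER and Golgi, and Lman1 and Lman2 are lectins that bind sugar chains of cargo. IRE1α splices Xbp1 mRNA, which gives a transcription factor that binds ER stress elements in promoters, among them a UPR element with the core TGACGTG. For that reason the promoters of the set were read for this core and for the ER stress response element.

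The 4 windows below show where the core lies in the promoters of coat subunits with and without a call on western diet. The sequences are from RefSeq on GRCm38.p6, written 5′ to 3′ on the strand of the gene from 120 bases before to 20 bases after its start, and capitals mark the match to TGACGTG or to its reverse complement CACGTCA. Sec24d and Copb2 were called higher on western diet, whereas Copb1 and Sec23a were not called. Copb2 and Copb1 had similar log2 fold changes, 0.18 ± 0.06 and 0.15 ± 0.06 (± SE). They lay on either side of the threshold, with edgeR adjusted p of 0.0397 for Copb2 and 0.0932 for Copb1. The windows are chr3:123267376-123267515 on the plus strand for Sec24d, chr9:98563611-98563750 on the plus strand for Copb2, chr7:114254661-114254800 on the minus strand for Copb1 and chr12:59011998-59012137 on the minus strand for Sec23a.
Sec24d: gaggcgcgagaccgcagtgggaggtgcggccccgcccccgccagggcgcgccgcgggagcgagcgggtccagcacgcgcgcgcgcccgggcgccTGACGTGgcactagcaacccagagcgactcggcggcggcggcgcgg
Copb2: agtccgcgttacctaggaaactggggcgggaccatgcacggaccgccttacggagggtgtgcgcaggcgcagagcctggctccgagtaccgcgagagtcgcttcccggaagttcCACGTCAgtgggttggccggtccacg
Copb1: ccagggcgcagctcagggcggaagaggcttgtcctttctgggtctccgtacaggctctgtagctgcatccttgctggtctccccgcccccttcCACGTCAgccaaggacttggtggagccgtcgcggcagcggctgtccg
Sec23a: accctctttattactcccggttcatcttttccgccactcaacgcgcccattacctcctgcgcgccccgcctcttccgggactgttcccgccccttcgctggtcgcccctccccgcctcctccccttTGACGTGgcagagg

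In Sec24d the core lay at bases −26 to −20 from the start, in Copb1 at −27 to −21, in Copb2 across the start from −6 to 1, and in Sec23a after the start at 7 to 13. Each of these 4 matches also overlapped a CCACG, the letters that end the ER stress response element. A RefSeq promoter, 250 bases before to 50 after the start, was at hand for 38 members, and both strands were searched. The core TGACGTG was present in 7 of these 38 members (18.4%), against 3.23% of the 11032 tested genes with a promoter and 2.22% of all 27025 genes with one. The other 3 were Kdelr3, Mia3 and Sec16b. Among members called higher on western diet 2 of 14 held the core, and among members not called 5 of 24. Receptors held it in 2 of 14 and coats in 5 of 23. The full ER stress response element, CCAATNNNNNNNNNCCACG, was found in 0 of the 38 members and in 0.163% of the tested genes. Its CCAAT part was about as frequent in members, 16 of 38 (42.1%), as in tested genes (42.5%), and CCACG alone was found in 27 of 38 (71.1%), against 51.6%. The median GC content was 59.0% in member promoters and 60.7% in promoters of tested genes. A match describes letters in these windows and is no measurement of binding.

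The set as a whole sat higher on western diet, by small amounts. All 43 members passed the filter on low counts, and 16 (37.2%) were called higher on western diet at an edgeR adjusted p under 0.05, against a background of 5.27% of the 15104 genes tested. By DESeq2 21 members were higher, against 7.57% of its tested genes, and by limma-voom 16, against 4.73%. None was called lower by edgeR, where the background is 5.50%, or by limma-voom, where it is 5.05%. DESeq2 called 1 lower, Copg2 (adjusted p = 0.0423), against 7.60% of its tested genes, and Copg2 was also the 1 member lower at an unadjusted edgeR p under 0.05. The log2 fold change of western diet over chow was above 0 in 40 members (93.0%), against 51.0% of all genes tested, and its median was 0.17 in the set and 0.01 in all genes. The range ran from −0.17 for Copg2 to 0.49 for Sec24d. In 11 members every western diet library lay above every chow library, as in 4.44% of the genes tested, and in 0 members the order was the opposite, as in 4.42% of the genes. The members were chosen with earlier results of these data known, and no test of the list was made.

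How many members were called depended on single mice, although the medians stayed between 0.14 and 0.22. The count was 10 without western diet cage 4 mouse 1, 9 without mouse 5 of that cage and 7 without mouse 4. It was 8 without chow mouse 1, 8 without chow mouse 3 and 24 without chow mouse 2. The number of genes called higher over the whole table moved too, from 796 with all mice. It was 558 without western diet cage 4 mouse 1, 476 without mouse 5 of that cage and 400 without mouse 4. Without chow mouse 1 it was 376, without chow mouse 3 431 and without chow mouse 2 862. No log2 fold change of a called member changed sign in any of 17 alternatives.

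**Figure D1:**
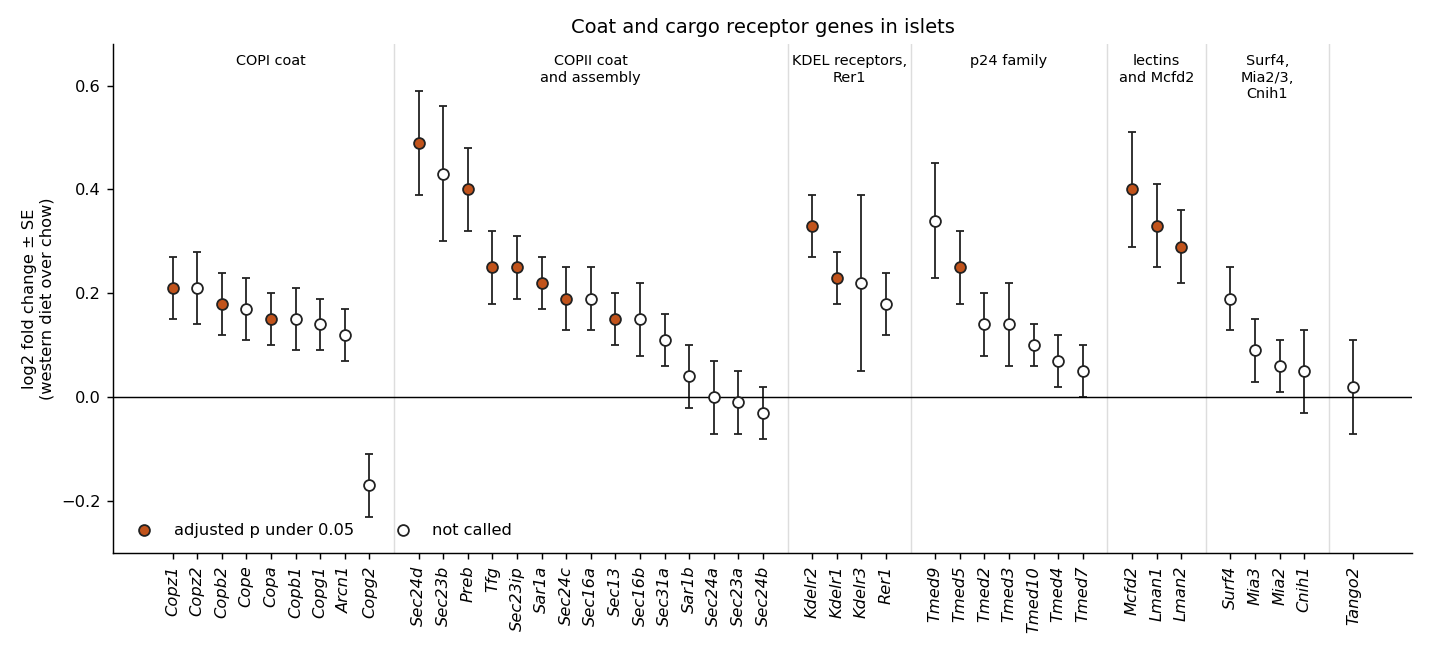
Log2 fold change of western diet over chow for each of the 43 members, ordered by size within its class; bars are the standard error and filled points have an edgeR adjusted p under 0.05. Points lie mostly above 0, from 0.49 for Sec24d down to −0.17 for Copg2, and all 3 genes of the class of lectins and Mcfd2 are filled.

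Among COPI coat genes, 3 of 9 rose on western diet, where the background over all genes is 5.27%. None was called lower, where the background is 5.50%, and the median log2 fold change was 0.15. The 3 were Copa and Copb2, which encode the α and β′ subunits of the outer layer of the coatomer, and Copz1, the ζ subunit of its inner layer. Values per mouse are given below as CPM, counts scaled to library size with TMM factors, in the order cage 4 mice 1, 2, 4 and 5 and cage 2 mouse 5 for western diet, then cage 3 mice 1 to 5 for chow. Copz1 had 116, 115, 109, 109 and 105 CPM on western diet, against 81.9, 102, 93.6, 105 and 95.3 CPM on chow. The lowest western diet mouse and chow mouse 4 both came to 105 CPM when rounded, with the western diet mouse the higher before rounding, and otherwise the diets were apart. The means were 111 ± 4.74 CPM on western diet and 95.7 ± 9.05 CPM on chow (SD, n = 5 mice per diet here and below), and the log2 fold change was 0.21 ± 0.06 (± SE; edgeR adjusted p = 0.0305). Copa had 602, 597, 610.4, 608 and 577 CPM on western diet, against 499, 587, 540.1, 538 and 534 CPM on chow. Chow mouse 2 lay among the western diet mice and chow mouse 1 lowest of all, and the log2 fold change was 0.15 ± 0.05 (edgeR adjusted p = 0.0484). Copa shares 2.07% of its exon bases with Ncstn on the opposite strand, which had 21916 reads over the 10 libraries against 111151 for Copa. Copb2 had 378, 366, 388, 383 and 346 CPM on western diet, against 301, 362, 304, 335 and 336 CPM on chow, again with chow mouse 2 above the western diet mouse of cage 2. Its log2 fold change was 0.18 ± 0.06 (edgeR adjusted p = 0.0397).

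The calls of these COPI genes were near the threshold. When 1 mouse at a time was left out, Copa kept its call without western diet cage 2 mouse 5 and without chow mouse 2 and lost it without any other (adjusted p 0.0819 to 0.157), and it was not called with RLE (0.0554) or upper quartile factors (0.0633). Copb2 lost it without the same 8 mice (0.0556 to 0.125). Copz1 lost its call without any 1 of the 4 western diet mice of cage 4 or without chow mouse 1, 3 or 5 (0.0535 to 0.0892).

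Copb1, Arcn1, Cope and Copz2 had fold changes similar to those of the called COPI genes without passing the test. Copb1 (β subunit) averaged 253 ± 8.04 CPM on western diet and 228 ± 19.7 CPM on chow, with a log2 fold change of 0.15 ± 0.06 (edgeR adjusted p = 0.0932). Arcn1, the δ subunit, averaged 396 ± 23.1 CPM on western diet and 365 ± 15.3 CPM on chow (0.12 ± 0.05, adjusted p = 0.127), and Cope, the ε subunit that supports the α subunit, 169 ± 7.95 CPM on western diet and 150.0 ± 14.5 CPM on chow (0.17 ± 0.06, adjusted p = 0.0756). Copz2, the second ζ subunit, averaged 37.4 ± 2.53 CPM on western diet and 32.3 ± 3.11 CPM on chow (0.21 ± 0.07, adjusted p = 0.0656). Without chow mouse 2 Copb1, Cope and Copz2 passed the threshold, with adjusted p of 0.0297, 0.0201 and 0.0332 by edgeR.

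The pair of γ subunits stood on different sides of 0. Copg1, the common γ1 subunit, had 298, 295, 327, 328 and 319 CPM on western diet, against 269.5, 299, 295, 277 and 285 CPM on chow, with a log2 fold change of 0.14 ± 0.05 (edgeR adjusted p = 0.0796). Copg2 (γ2) had 41.5, 47.8, 45.6, 44.6 and 46.6 CPM on western diet, against 53.5, 52.7, 46.8, 52.0 and 49.8 CPM on chow. Only chow mouse 3 fell within the western diet values, and the log2 fold change was −0.17 ± 0.06 (edgeR adjusted p = 0.0561). Copg2 passed as lower without chow mouse 3 (adjusted p = 0.0389) and with upper quartile factors (adjusted p = 0.0415). Of its exon bases 17.8% are shared with Mest on the opposite strand, which had 957 reads over the 10 libraries against 9390 for Copg2, and the sources used here name no strand setting for the counts.

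The COPII class held the largest fold changes of the coats, with 7 of 15 genes higher (background 5.27%), none lower (background 5.50%) and a median log2 fold change of 0.19. The 7 were Sar1a and its activator Preb, the cargo-binding subunits Sec24c and Sec24d, the cage subunit Sec13, the Sec23-binding protein Sec23ip and Tfg, which organises ER exit sites. Sec24d, at chr3:123267455-123365641 (GRCm38, as in the deposited table), had 209, 199, 248, 229 and 181 CPM on western diet, against 125, 172, 143, 159.9 and 157 CPM on chow. Every western diet mouse lay above every chow mouse, with the cage 2 mouse lowest on western diet and chow mouse 1 lowest on chow. The means were 213 ± 26.1 CPM on western diet and 151 ± 18.2 CPM on chow, which is 40.9% higher on western diet, with a log2 fold change of 0.49 ± 0.10 (edgeR adjusted p = 0.00773). Preb, at chr5:30950853-30960361, had 187, 168, 201, 183 and 149 CPM on western diet, against 115, 149, 135, 143 and 132 CPM on chow. The western diet mouse of cage 2 and chow mouse 2 both came to 149 CPM when rounded, with the western diet mouse the higher before rounding, and the other mice were apart. The means were 178 ± 19.8 CPM on western diet and 135 ± 12.8 CPM on chow, 31.6% higher on western diet, with a log2 fold change of 0.40 ± 0.08 (edgeR adjusted p = 0.00671).

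Of the exon bases of Preb 21.8% are shared with Abhd1 on the opposite strand, which had 9 reads over the 10 libraries against 30424 for Preb. Sar1a, the GTPase that Preb activates, had 337, 344, 357, 341 and 317 CPM on western diet, against 266, 310.4, 293, 276 and 306 CPM on chow. No value overlapped between the diets, and the log2 fold change was 0.22 ± 0.05 (edgeR adjusted p = 0.0112). Sec23ip had 91.6, 87.9, 102, 97.3 and 90.4 CPM on western diet, against 71.7, 86.5, 78.2, 76.9 and 81.3 CPM on chow, also without overlap, with a log2 fold change of 0.25 ± 0.06 (edgeR adjusted p = 0.00966). Sec24d, Preb, Sar1a and Sec23ip kept their calls in all 17 alternatives.

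The remaining calls of this class were smaller or less stable. Tfg had 90.7, 80.6, 93.8, 83.1 and 70.2 CPM on western diet, against 67.8, 72.5, 64.8, 71.6 and 75.5 CPM on chow, so the cage 2 mouse lay within the chow values. Its log2 fold change was 0.25 ± 0.07 (edgeR adjusted p = 0.0286), and leaving out western diet cage 4 mouse 1, 4 or 5 or chow mouse 1 or 3 ended the call (adjusted p 0.0562 to 0.0868). Neither Tfg nor Sec24c was called by limma-voom (0.0502 for Tfg, 0.0505 for Sec24c). Sec24c had 148, 152, 173, 178 and 156 CPM on western diet, against 133, 146, 143, 139.7 and 147 CPM on chow. The lowest western diet mouse stood 1 CPM above the highest chow mouse after rounding, and the log2 fold change was 0.19 ± 0.06 (edgeR adjusted p = 0.0386). Leaving out western diet cage 4 mouse 4 or 5 or chow mouse 1, 3 or 4 ended the call (adjusted p 0.0771 to 0.113). Sec13, which is also part of the nuclear pore, had 86.4, 86.4, 91.0, 89.2 and 90.1 CPM on western diet, against 79.6, 80.1, 79.6, 76.1 and 84.6 CPM on chow, with no overlap and little spread. Its log2 fold change was 0.15 ± 0.05 (edgeR adjusted p = 0.0447), and 9 of the 10 fits that left out a mouse did not call it (adjusted p 0.0574 to 0.118), the exception being the fit without chow mouse 5. Nor was Sec13 called with RLE factors (0.0514), upper quartile factors (0.0658) or no filter (0.102).

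Sec23b had the second largest fold change of the class and was not called. Its values were 198, 169, 215, 203 and 152 CPM on western diet, against 108, 172, 133, 149 and 133 CPM on chow. Chow mouse 2 lay above 2 western diet mice, and the spread was wide, with a log2 fold change of 0.43 ± 0.13 (edgeR adjusted p = 0.0699). It passed by limma-voom (adjusted p = 0.0262), by DESeq2 (adjusted p = 0.0223), and in edgeR without the cage 2 mouse (0.0302) or without chow mouse 2 (0.0238). Its paralog Sec23a had 35.4, 38.1, 35.1, 39.3 and 39.1 CPM on western diet, against 40.9, 35.3, 36.9, 34.2 and 40.5 CPM on chow, with fully mixed values and a log2 fold change of −0.01 ± 0.06 (edgeR adjusted p = 0.950).

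Sec31a, the partner of Sec13 in the cage, averaged 373 ± 19.3 CPM on western diet and 346 ± 10.4 CPM on chow (0.11 ± 0.05, edgeR adjusted p = 0.148). Sec16a, the scaffold of ER exit sites, averaged 298 ± 30.8 CPM on western diet and 261 ± 10.4 CPM on chow (0.19 ± 0.06, adjusted p = 0.0504, not called), and its paralog Sec16b 77.7 ± 8.50 CPM on western diet and 69.9 ± 5.91 CPM on chow (0.15 ± 0.07, adjusted p = 0.190). Sec16a passed without filtering (adjusted p = 0.0184), by DESeq2 (0.0261) and without western diet cage 4 mouse 2 (0.0190), western diet cage 2 mouse 5 (0.0398) or chow mouse 2 (0.0381). Sar1b, the second Sar1 gene, had 83.7, 91.5, 87.4, 76.9 and 81.9 CPM on western diet, against 70.5, 81.2, 82.7, 87.9 and 86.2 CPM on chow, with mixed values. Sar1b, Sec24a and Sec24b differed little, with log2 fold changes of 0.04 ± 0.06, 0.00 ± 0.07 and −0.03 ± 0.05 and edgeR adjusted p of 0.693 for Sar1b, 1.000 for Sec24a and 0.773 for Sec24b.

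**Figure D2:**
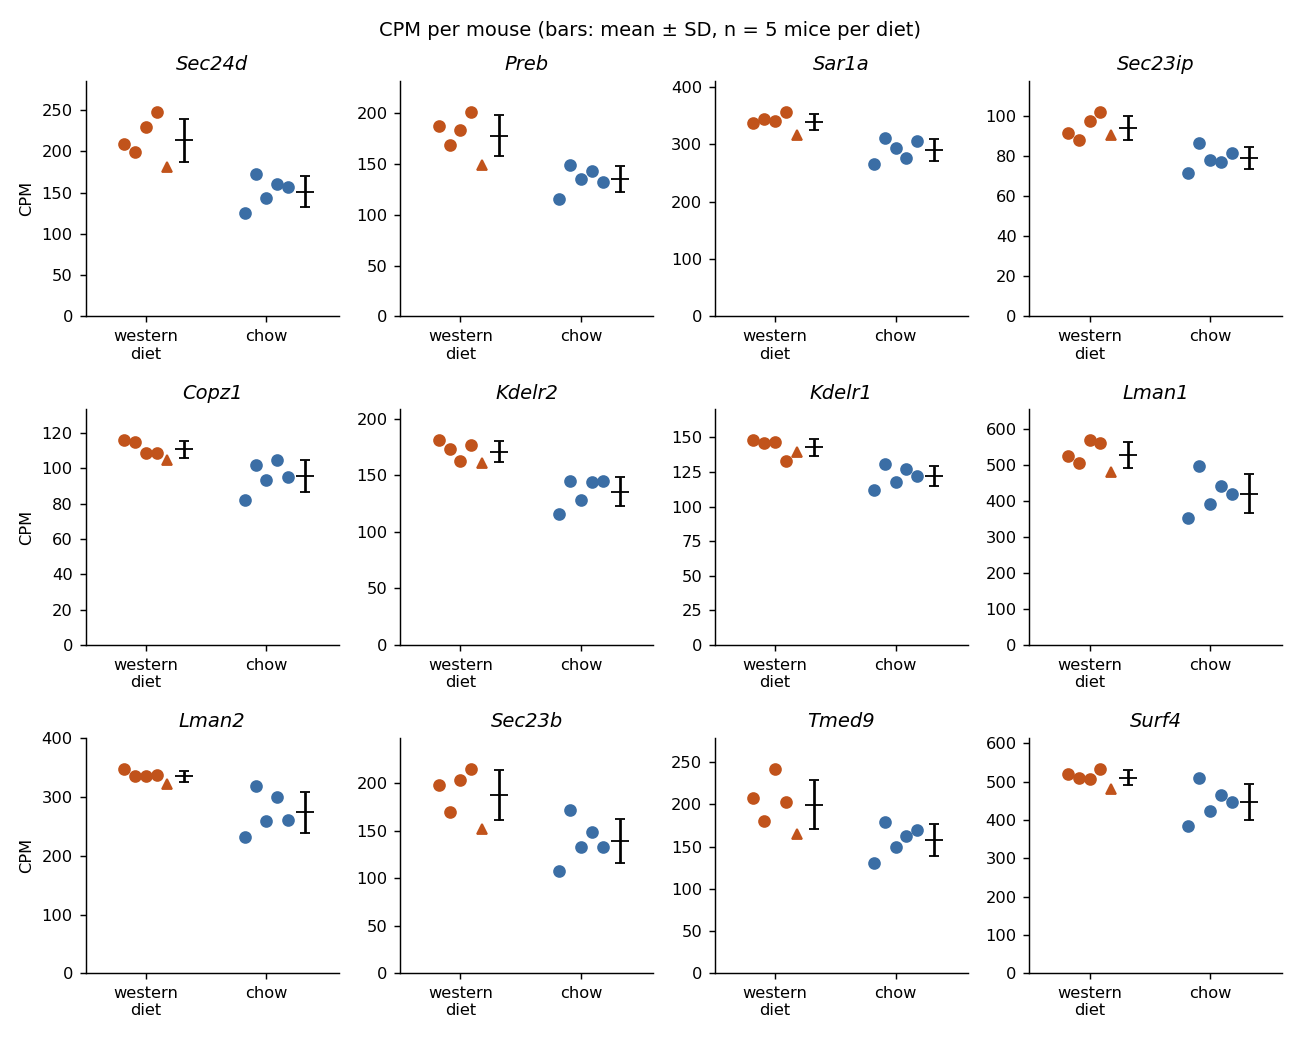
CPM per mouse (linear axis from 0) of 12 coat and receptor genes, western diet left and chow right; circles are mice of cage 4 or cage 3, the triangle is the western diet mouse of cage 2, and bars are mean ± SD of 5 mice. Sec24d, Sar1a, Sec23ip, Kdelr1, Kdelr2 and Lman2 show no overlap between the diets, while Lman1, Sec23b and Surf4 overlap through chow mouse 2, the second chow point from the left, and Tmed9 through chow mice 2 and 5.

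Of the 18 cargo receptor genes in the set, 6 were higher on western diet by edgeR, against 5.27% of all genes tested. None was lower by edgeR (background 5.50%), DESeq2 (7.60%) or limma-voom (5.05%). The log2 fold change was above 0 in each of the 18, against 51.0% of all genes tested, and ran from 0.05 to 0.40 with a median of 0.19. Some related genes outside the set, among them Tmed6 and Tmed8, had values below 0 and are given further below. Kdelr2 and Kdelr1 had the smallest adjusted p of the receptors. Kdelr2, at chr5:143403838-143421901, had 181, 173, 177, 163 and 161 CPM on western diet, against 116, 145, 128, 144 and 145 CPM on chow. All western diet mice lay above all chow mice, and the means were 171 ± 8.91 CPM on western diet and 136 ± 13.1 CPM on chow, with a log2 fold change of 0.33 ± 0.06 and the smallest adjusted p of the 43 genes (edgeR, 0.00307). Kdelr1 had 148, 146, 133, 147 and 139.7 CPM on western diet, against 112, 131, 118, 127 and 122 CPM on chow, with no overlap and a log2 fold change of 0.23 ± 0.05 (edgeR adjusted p = 0.00905). Kdelr3 was scarce, at 6.99 ± 1.56 CPM on western diet and 5.98 ± 1.32 CPM on chow, with a log2 fold change of 0.22 ± 0.17 (edgeR adjusted p = 0.430). Rer1, which returns membrane proteins to the ER, averaged 70.7 ± 2.91 CPM on western diet and 62.4 ± 6.31 CPM on chow (0.18 ± 0.06, adjusted p = 0.0743, and 0.0330 without chow mouse 2).

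All 3 genes of the lectin class (Lman1, Lman2 and the partner Mcfd2) were higher by edgeR, where the background is 5.27%. The related Lman2l, outside the set, was not called (0.19 ± 0.11, edgeR adjusted p = 0.276). Lman1, known as ERGIC-53, carries glycoproteins out of the ER together with its partner Mcfd2, and Lman2 is a related lectin also called VIP36. Lman1 had 524, 504, 559, 568 and 479 CPM on western diet, against 353, 496, 389.9, 441 and 419 CPM on chow. Chow mouse 2 lay above the western diet mouse of cage 2, and the log2 fold change was 0.33 ± 0.08 (edgeR adjusted p = 0.0155, and 0.0523 without western diet cage 4 mouse 4). Lman2 had 348, 335, 337, 335 and 322 CPM on western diet, against 232, 319, 259.8, 300.0 and 260.2 CPM on chow. The western diet mice were close together and above all chow mice, with a log2 fold change of 0.29 ± 0.07 (edgeR adjusted p = 0.0135). Mcfd2 had 113, 92.1, 114, 114 and 90.9 CPM on western diet, against 63.8, 95.0, 71.3, 86.9 and 78.3 CPM on chow. Chow mouse 2 lay above 2 western diet mice, and the log2 fold change was 0.40 ± 0.11 (edgeR adjusted p = 0.0426). Mcfd2 lost its call without western diet cage 4 mouse 1, 4 or 5 or chow mouse 1, 3 or 5 (adjusted p 0.0642 to 0.0988) and without the filter on low counts (0.110).

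Of the 7 p24 family genes in the set 1 was called higher, where the background over all genes is 5.27%, and the median log2 fold change was 0.14. Tmed1, Tmed6 and Tmed8, outside the set, were not called. Tmed5, a scarce member of the γ subfamily, had 44.7, 47.3, 51.1, 42.5 and 42.8 CPM on western diet, against 34.6, 41.6, 37.4, 38.0 and 40.3 CPM on chow. The diets did not overlap, and the log2 fold change was 0.25 ± 0.07 (edgeR adjusted p = 0.0207). The gene was no longer called by edgeR without western diet cage 4 mouse 4 (adjusted p = 0.0713), chow mouse 1 (0.0667) or chow mouse 3 (0.0572). Of its exon bases 5.14% are shared with Mtf2 on the opposite strand, which had 2653 reads over the 10 libraries against 8217 for Tmed5. Tmed9, of the α subfamily, had 207, 180.2, 203, 242 and 165 CPM on western diet, against 130.2, 179, 149.7, 163 and 169 CPM on chow. It had the largest fold change of the family, 0.34 ± 0.11, but a wide spread (edgeR adjusted p = 0.0729, 0.0226 without the cage 2 mouse, 0.00860 by DESeq2). Tmed2 and Tmed10, which form heteromers at the core of the family, averaged 221 ± 11.8 CPM on western diet and 199.7 ± 15.0 CPM on chow for Tmed2 (0.14 ± 0.06, adjusted p = 0.103) and 331 ± 5.70 CPM on western diet and 309.7 ± 12.5 CPM on chow for Tmed10 (0.10 ± 0.04, adjusted p = 0.173). Tmed3, Tmed4 and Tmed7 had log2 fold changes of 0.14 ± 0.08, 0.07 ± 0.05 and 0.05 ± 0.05 and edgeR adjusted p of 0.247 for Tmed3, 0.380 for Tmed4 and 0.553 for Tmed7. Without chow mouse 2 Tmed2 (0.0331) and Tmed3 (0.0199) passed the threshold.

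None of the 4 genes for export of selected cargo was called by edgeR or limma-voom. Surf4 had an unadjusted edgeR p under 0.05 and was called by DESeq2 (adjusted p = 0.0292). Surf4, a receptor for soluble secretory proteins, had 519.5, 510.4, 534, 506 and 482 CPM on western diet, against 385, 510.1, 424, 465 and 448 CPM on chow. Chow mouse 2 came to 510.1 CPM, among the western diet mice, and the log2 fold change was 0.19 ± 0.06 (edgeR adjusted p = 0.0502). Without chow mouse 2 the adjusted p was 0.0108, and without western diet cage 2 mouse 5 it was 0.0407. Mia3 and Mia2, known as TANGO1 and cTAGE5, help to load large cargo at ER exit sites. Mia3 averaged 326 ± 9.48 CPM on western diet and 307 ± 28.4 CPM on chow (0.09 ± 0.06, adjusted p = 0.325) and Mia2 213 ± 5.87 CPM on western diet and 204 ± 8.20 CPM on chow (0.06 ± 0.05, adjusted p = 0.453). Cnih1, a cornichon protein, averaged 32.5 ± 3.67 CPM on western diet and 31.5 ± 2.94 CPM on chow (0.05 ± 0.08, adjusted p = 0.745). Tango2, outside the classes, averaged 11.6 ± 0.893 CPM on western diet and 11.4 ± 0.920 CPM on chow (0.02 ± 0.09, adjusted p = 0.913).

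The diets differed by similar amounts in receptors and coats. The receptors had 6 of 18 genes called higher (33.3%, 4 of them with no overlap between the diets) and a median log2 fold change of 0.19, and the coats had 10 of 24 (41.7%, 7 with no overlap) and a median of 0.16. Over all genes tested 5.27% were called higher, and 4.44% had every western diet library above every chow library. Averaged per mouse over the 18 receptors, log2 CPM was 7.23 ± 0.043 on western diet and 7.03 ± 0.123 on chow, and the ranges of 7.16 to 7.27 on western diet and 6.88 to 7.19 on chow overlapped. Over the 24 coat genes it was 7.17 ± 0.056 on western diet and 7.00 ± 0.071 on chow, and the ranges of 7.11 to 7.24 on western diet and 6.90 to 7.10 on chow did not overlap. The receptor average minus the coat average was 0.06 ± 0.049 on western diet and 0.03 ± 0.063 on chow, a difference of 0.03 that is smaller than the spread between mice. No test was made of these averages. Which class had the larger share of calls depended on the method and on single mice. With all mice the shares were 33.3% in both classes with RLE or upper quartile factors. By limma-voom they were 38.9% in receptors and 37.5% in coats, and by DESeq2 44.4% and 54.2%. Over all genes the shares were 4.85% with RLE factors, 4.48% with upper quartile factors, 4.73% by limma-voom and 7.57% by DESeq2. When 1 mouse at a time was left out, the share was larger in receptors in 6 of the 10 fits, larger in coats in 3 and equal in 1. For example, 5 of 18 receptors and 4 of 24 coat genes were called without western diet cage 4 mouse 5, and 5 of each class without mouse 1 of that cage. There were 3 receptors and 4 coat genes without mouse 4 of that cage, 4 of each without chow mouse 1 or chow mouse 3, 6 of each without chow mouse 4, and 10 receptors and 14 coat genes without chow mouse 2. The fits without 1 mouse called 2.47% to 6.01% of all genes higher. Within the receptors the lectin class averaged 0.35 higher on western diet, the KDEL class 0.24, the p24 family 0.16 and the export class 0.10, and within the coats COPII averaged 0.19 higher and COPI 0.13, each a difference in mean log2 CPM.

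The receptors varied more than the coats among chow mice. Chow mouse 2 had a receptor average of 7.19 and chow mouse 1 of 6.88, and the same mice were the highest and lowest chow mice for the coats, at 7.10 and 6.90. Summed over the 43 genes, western diet libraries held 8514 ± 312 CPM and chow libraries 7478 ± 507 CPM. The western diet mice ranged from 8072 CPM in the cage 2 mouse to 8813 CPM, and the chow mice from 6809 CPM in mouse 1 to 8201 CPM in mouse 2, with the next chow mouse at 7609.9 CPM.

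**Figure D3:**
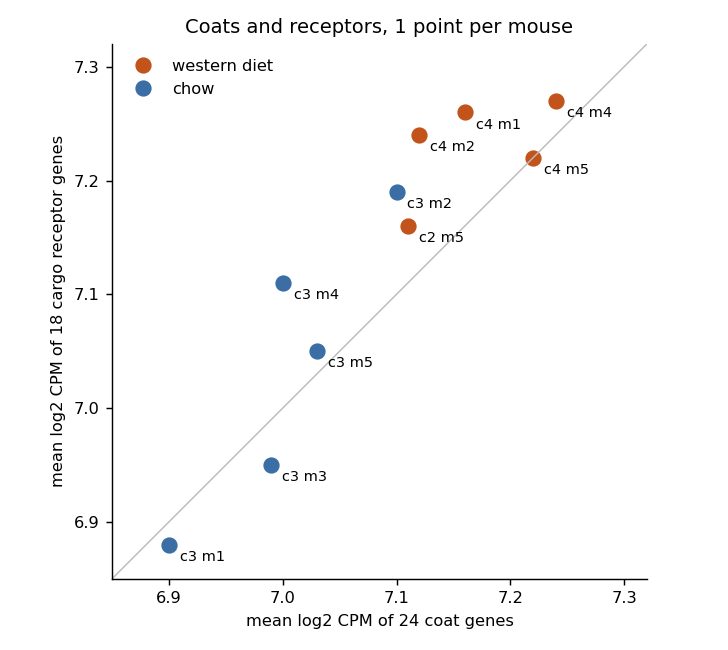
Mean log2 CPM of the 18 cargo receptor genes against that of the 24 coat genes, 1 point per mouse, with c for cage and m for mouse; the grey line marks equal values. The western diet mice lie at 7.16 or above for the receptors and 7.11 or above for the coats, and chow mouse 2 (7.19 for receptors, 7.10 for coats) is the chow point nearest to them.

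Where a coat or receptor position can be filled by paralogs, the ratio of both genes was compared between the diets in 11 pairs, with a two-sided exact permutation test over the 10 mice. Of these, 3 had an exact p under 0.05 and 0 had an adjusted p under 0.05 over the 11 pairs, where the smallest exact p the design allows is 0.00794. A pair that alone reached this smallest p could not pass the adjustment over 11 pairs, so the lack of calls says little about any single pair. The log2 ratio of Sec24d over Sec24c was 0.40 ± 0.12 on western diet and 0.09 ± 0.14 on chow, a difference of 0.31 (exact p = 0.0159, adjusted 0.0873). Copg2 over Copg1 was −2.79 ± 0.10 on western diet and −2.48 ± 0.12 on chow, a difference of −0.31 (exact p = 0.0159, adjusted 0.0873). Sar1a over Sar1b was 2.01 ± 0.09 on western diet and 1.83 ± 0.11 on chow, a difference of 0.18 (exact p = 0.0238, adjusted 0.0873). In each of these pairs the diets overlapped in at least 1 mouse. Sec23a over Sec23b differed most, by −0.44, with a standard error of 0.19 (exact p = 0.0556, adjusted 0.153). Kdelr1 over Kdelr2 differed by −0.11 (exact p = 0.0952, adjusted 0.210), and the other 6 pairs had exact p of 0.421 to 0.881.

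**Figure D4:**
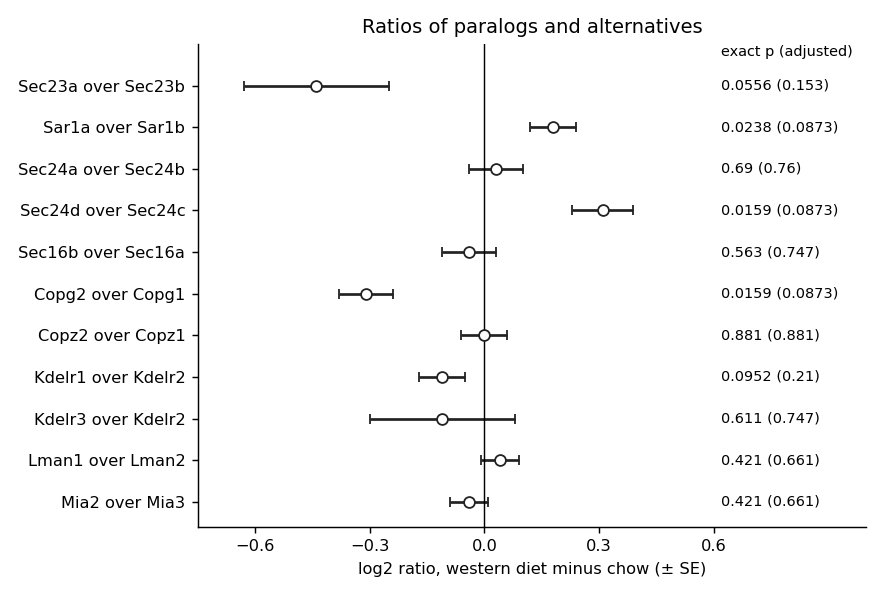
Difference between the diets, western diet minus chow, in the log2 CPM ratio of 11 pairs of members, with standard errors over 5 mice per diet and the two-sided exact permutation p beside each (adjusted over the pairs in parentheses). Sec24d over Sec24c (0.31) and Sar1a over Sar1b (0.18) lie right of 0, Copg2 over Copg1 (−0.31) and Sec23a over Sec23b (−0.44) left of it, and no adjusted p is under 0.05.

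Per length, Sec24d had the largest mean share of the Sec24 genes on both diets, although on chow its range overlapped that of Sec24c. It took 44.1% ± 2.38 of the summed FPKM of the 4 Sec24 genes on western diet and 37.6% ± 2.81 on chow, and Sec24c took 33.6% ± 1.18 on western diet and 35.5% ± 0.699 on chow. The range for Sec24d was 40.3% to 46.5% on western diet and 33.9% to 40.5% on chow, which overlapped narrowly. For Sec24c the range was 32.5% to 34.9% on western diet and 34.6% to 36.2% on chow. Sec24b took 15.2% ± 1.30 on western diet and 18.6% ± 1.77 on chow, while its own CPM hardly differed. Of the KDEL receptor FPKM, Kdelr2 took 53.5% ± 1.48 on western diet and 51.7% ± 1.24 on chow, and Kdelr3 2.84% ± 0.641 on western diet and 2.94% ± 0.549 on chow.

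The order of levels within the set is described by the deposited FPKM over all 10 mice. Surf4 was the most abundant member per length, with a median of 149.9 FPKM (117 to 162), and lay above the next gene in every library. Sar1a (83.9 FPKM), Kdelr2 (83.7), Tmed2 (82.3), Tmed3 (80.5), Tmed4 (77.6), Lman1 (76.1), Mia3 (71.5), Kdelr1 (70.3) and Sar1b (66.3) followed, and from Kdelr2 on none of these neighbours was below the one before it in every library. The most abundant COPI genes were Copa at 61.8 FPKM and Copb2 at 55.8 FPKM. At the low end were Sec23a at 7.77 FPKM, Tmed5 at 5.45, Sec24a at 5.35, Kdelr3 at 4.53 and Tango2 at 1.52. Genes called higher on western diet were found at both ends of this order, from Sar1a and Kdelr2 to Tmed5.

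**Figure D5:**
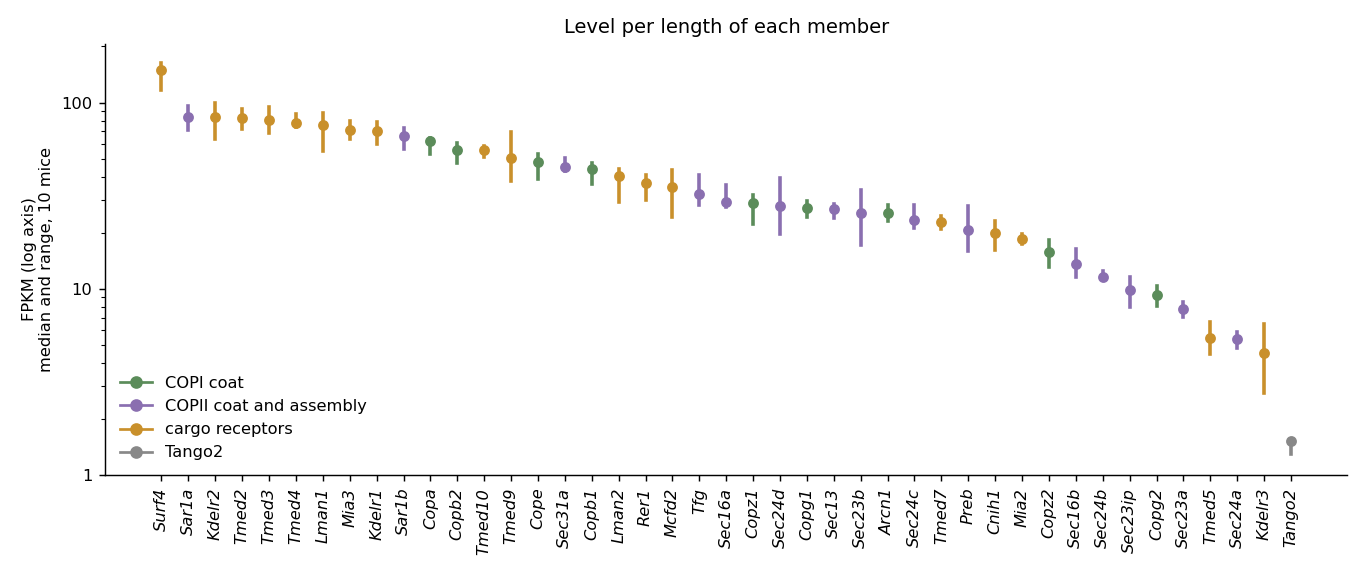
FPKM of each member on a log axis, as the median (point) and range (line) of the 10 mice of both diets, coloured by class. Surf4 stands apart at 149.9 FPKM, cargo receptors fill most of the top 10 places, and Tango2 is lowest at 1.52 FPKM.

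Genes that act beside the coats were counted from a list of 51, of which 48 were tested. On western diet 13 were higher by edgeR, where the background over all genes is 5.27%, 15 by DESeq2 (background 7.57%) and 13 by limma-voom (4.73%). The median log2 fold change was 0.13. None was lower by edgeR (background 5.50%), DESeq2 (7.60%) or limma-voom (5.05%). Nor was any lower at an unadjusted edgeR p under 0.05, for which the share over all genes was not counted. Among Arf GTPases and other regulators of COPI, 3 of 9 rose, among them Arf4 (0.25 ± 0.07, edgeR adjusted p = 0.0254) and Arfgap3 (0.34 ± 0.10, 0.0461), while Arf1 (0.15 ± 0.05) and Gbf1 (0.15 ± 0.06) did not pass. For the arrival of COPI vesicles at the ER, 3 of 8 rose, namely Sec22b (0.21 ± 0.06), Rint1 (0.31 ± 0.09) and Scfd2 (0.30 ± 0.07). For tethering and fusion of ER-derived vesicles it was 5 of 14, namely Uso1 (0.26 ± 0.06), which encodes the tether p115, and the SNAREs Bet1 (0.38 ± 0.11), Gosr2 (0.28 ± 0.06), Stx5a (0.40 ± 0.08) and Ykt6 (0.16 ± 0.05). Among other ERGIC proteins and adaptors 2 of 17 rose, Ergic2 (0.23 ± 0.05) and Yipf5 (0.29 ± 0.07), and the median of this group was 0.09. Of those not called, Lman2l (0.19 ± 0.11) and Tmed1 (0.13 ± 0.13) were among the genes above 0. Below 0 lay, among others, Tmed6 (−0.07 ± 0.11), Tmed8 (−0.08 ± 0.06), Cnih2 (−0.11 ± 0.19), Cnih4 (−0.01 ± 0.10) and Bcap29 (−0.18 ± 0.09). The Rab GTPases Rab1a (0.07 ± 0.05), Rab1b (−0.05 ± 0.05) and Rab2a (0.05 ± 0.05) were not called. These values are log2 fold changes ± SE.

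As points of comparison for the ER stress pathway, Xbp1 averaged 347 ± 26.5 CPM on western diet and 312 ± 11.9 CPM on chow (log2 fold change 0.15 ± 0.05, edgeR adjusted p = 0.0779). Counts per gene do not separate spliced from unspliced Xbp1 mRNA, so splicing by IRE1α was not measured. Ern1, which encodes IRE1α, averaged 271 ± 28.2 CPM on western diet and 237 ± 15.8 CPM on chow (0.19 ± 0.07, adjusted p = 0.0731). Hspa5, the chaperone BiP that KDEL receptors retrieve, went the other way, at 2811, 2634, 2599, 2535 and 1948 CPM on western diet, against 5215, 4886, 4192, 3604 and 3662 CPM on chow. Its values did not overlap, and it fell by 0.78 on the log2 scale (SE 0.13, edgeR adjusted p = 0.00727).

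The libraries held 16532518 to 23902681 counts, and the first principal component, with 24.2% of the variance, separated the diets. Beta cell markers summed to 241806 to 276553 CPM on western diet and 230688 to 266802 CPM on chow, so the labelled islets carried their defining genes. In bulk islets, fewer cells of a type and less RNA per cell cannot be told apart. Immediate early and heat shock genes, which respond to the handling of tissue, moved with the diet. All 11 were lower on western diet, and their sum was 8728 to 10789 CPM on western diet and 15827 to 19458 CPM on chow. Endothelial markers summed to 337 to 388 CPM on western diet and 389 to 429 CPM on chow, with 1 of 6 genes lower by edgeR, 3 by DESeq2 and 1 by limma-voom, 3 lower at an unadjusted edgeR p under 0.05, and none at 0. Lower by edgeR were also 2 of 7 tested duct markers (4 at an unadjusted p under 0.05), 1 of 6 macrophage markers and 1 of 6 stromal markers. Over all genes tested 5.50% were lower by edgeR, and the sums of these 3 lists overlapped between the diets. Of the beta cell markers 2 of 8 were higher and 1 lower by edgeR (2 lower by DESeq2), and of the alpha cell markers 1 of 5 was higher. No delta or PP cell marker was called. Acinar markers summed to 1065 to 7103 CPM on western diet and 839 to 3431 CPM on chow, which overlap. Of 15 tested acinar genes 0 were called by edgeR, 1 was higher at an unadjusted p under 0.05, and DESeq2 and limma-voom each called 1 higher. The part of these genes in the differences of coats and receptors was not tested.

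In the authors' deposited table, 21 members had an adjusted p under 0.05 and a higher level on western diet. Over its 27577 genes with a p-value the share higher was 3.39%. Copg2 was the 1 member lower, and the share of lower genes over that table was not counted. In the DESeq2 fit made here, 7.57% of the 13169 genes with an adjusted p were higher and 7.60% lower. The 21 were 8 receptors and 13 coat genes. Beyond the genes called here by edgeR, the authors' deposited table had Copg1 (log2 fold change 0.14), Sec23b (0.43), Sec16a (0.19), Tmed9 (0.34) and Surf4 (0.19) as higher. Copg2 stood at −0.17 with an adjusted p of 0.0476 in the authors' deposited table.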

How the data were processed

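RNA from the islets of 5 western diet and 5 chow mice was sequenced. Libraries came from the NEBNext Ultra RNA kit, as the labels' protocols state. The submitters' processing notes name STAR 2.5, HTSeq 2, DESeq2, mm10 and GRCm38. The strand setting was not found in the sources used here, so reads of overlapping genes on opposite strands cannot be told apart. The authors deposited whole-number read counts per gene, not normalized, and FPKM per sample. In genes over 100 reads, the deposited FPKM equalled count over gene length times 1 factor per library within 0.1%. The deposited table also gives the authors' log2 fold changes and their p-values, which were empty for 88 genes. A further 10 columns of normalized values were not used.

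Diets were compared on the counts by edgeR 4.0.16 under R 4.3.3 (filterByExpr with a minimum count of 10, TMM factors, robust quasi-likelihood test, no covariate). P-values were adjusted by Benjamini-Hochberg over 15104 genes, with calls made below 0.05. Log2 fold changes have western diet on top, and SE is the size of the log2 fold change over the root of the F statistic. CPM use the TMM factors. Paralog ratios use log2 CPM with a prior count of 2. Libraries held 16532518 to 23902681 counts, and SD between mice include counting error. The alternatives tried were upper quartile or RLE factors, omitting the filter, DESeq2 1.42.0, limma-voom (limma 3.58.1), mouse number as a replicate block, and leaving out each mouse, or 2 mice that stood apart. The edgeR steps were tested on simulated data. The members and all gene lists were chosen with earlier results of these data known. All members are accounted for, with values per mouse for called members and for those that a statement of no call or of a paralog turns on. Member coordinates are those of the deposited table. RefSeq promoters were matched by symbol. Of the genes counted beside the coats, 1 is not reported here by name.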

Additional observations from a re-analysis of the deposited data

Results flagged for a closer look

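In each of 86 groups of 5 libraries (43 members in 2 diets), the gap between the extreme library and its nearest neighbour was divided by the group's range and compared with Dixon's 95% limit of 0.71. Of these groups 2 exceeded it, where chance gives about 1 in 20. Sec31a, of the COPII cage, had 364 CPM in chow cage 3 mouse 2, and the other 4 chow libraries had 339 to 346 CPM, a ratio of 0.715. Cnih1, the cornichon receptor, had 26.4 CPM in chow cage 3 mouse 1, and the other 4 chow libraries had 31.6 to 33.5 CPM, a ratio of 0.734. The same mice were the highest and lowest of the chow group in the summed CPM of the 43 genes, at 8201 and 6809 CPM.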

How the results depend on the processing

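Each member was refitted under 17 alternatives, and 0 of the 16 called members changed sign. Sar1a, Preb, Sec24d, Sec23ip, Kdelr2 and Lman2 kept their calls throughout, and 15 of the 27 uncalled members were never called. With all mice 16 members were higher (6 receptors and 10 coat genes), and leaving out 1 mouse gave 7 to 24 (3 to 10 receptors, 4 to 14 coat genes). Over all genes the share higher was 5.27% with all mice and 2.47% to 6.01% without 1 mouse. The number of members lower, 0, became 1 with upper quartile factors, 1 with DESeq2, and 0 to 1 without 1 mouse, each time the coat gene Copg2. Over all genes 5.50% were lower by edgeR with all mice and 7.60% by DESeq2. RLE and upper quartile factors both gave 14 higher, no filter 16, limma-voom 16, DESeq2 21 (8 receptors, 13 coat genes), and leaving out western diet cage 2 mouse 5 with chow mouse 1 gave 14. The shares higher over all genes were 4.85% with RLE factors, 4.48% with upper quartile factors and 2.72% with no filter. They were 4.73% by limma-voom, 7.57% by DESeq2 and 4.06% without those 2 mice. The fits without a mouse have fewer samples. The cause of the other shifts was not tested.

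With mouse number as a replicate block, 7 members were higher, 3 receptors and 4 coat genes, with 0 in the COPI coat. Copa, Copb2, Copz1, Sec24c, Sec13, Tfg, Kdelr1, Tmed5 and Mcfd2 were not called (edgeR adjusted p 0.0548 to 0.158). The labels number mice within cages, and same-numbered mice of the 2 diets did not deviate together (r −0.13 to 0.05), so the numbers do not pair the mice. Over all genes the block gave 342 higher, against 796. Depth limits the scarcest members most, among them Kdelr3 at 1267 reads over the 10 libraries. No paralog ratio passed the adjusted threshold with all mice or with a prior count of 0.5, and without 1 mouse the exact test has too few regroupings to speak of stability. The order of levels by length-scaled counts swapped neighbours only.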
